A study of Rattus norvegicus with 30 samples.

Results

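Genes named for ionotropic receptor subunits, the channels that open when GABA, glycine, acetylcholine, serotonin or glutamate binds, were examined in sciatic nerve (SN) and dorsal root ganglia (DRG) of the rat after nerve resection. The members were all genes whose symbol on the array began with Gabra, Gabrb, Gabrd, Gabre, Gabrg, Gabrp, Gria, Grid, Grik, Grin, Chrna, Chrnb, Chrnd, Chrne, Chrng, Glra, Glrb or Htr3, followed only by digits or small letters. The rule reads names and no measured value, though it was set with earlier results of these data known. This gave 59 genes, carried by 71 of the 41012 probes of the array. Of the 59 genes, 56 encode receptor subunits. The other 3 were taken in by their names alone, among them Grina and Grinl1a (now Polr2m, named after a subunit of RNA polymerase II).

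Adult male Sprague-Dawley rats had a segment of the left sciatic nerve cut out in the mid-thigh, and lumbar DRG and the proximal stump of the nerve were taken at 0, 1, 4, 7 and 14 d. Each tissue and day had 3 one-color arrays, 30 in all, and all animals carried the same anesthetic and the same resection, except that the labels do not say whether the 0 d animals were operated on. The labels give 6 rats per day but not which rats went onto an array, nor whether SN and DRG arrays came from the same rats, so a p-value measures the spread between these arrays. The DRG holds the cell bodies of sensory neurons with their satellite glia, whereas the nerve holds axons, Schwann cells, fibroblasts, vessels and blood-borne cells but no sensory neuron bodies. The labels held up against markers of sensory neurons: 14 such genes had a summed level of 9.31 to 9.65 on the DRG arrays and of 2.50 to 3.45 on the SN arrays (log2, in the unit defined below). In addition, 10 genes of Schwann cells and myelin were above background on every array of both tissues, which does not tell the tissues apart.

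Receptors of the Cys-loop family, which are the GABA-A, glycine, nicotinic acetylcholine and 5-HT3 receptors, are built from subunits around a central pore. GABA-A and glycine receptors pass chloride, and nicotinic and 5-HT3 receptors pass cations. The ionotropic glutamate receptors, namely the AMPA, kainate, delta and NMDA types, are a separate family of cation channels. Primary sensory neurons carry GABA-A receptors, 5-HT3 receptors, kainate receptors and several neuronal nicotinic subunits on their bodies and central terminals. The muscle-type nicotinic receptor sits at the neuromuscular junction, where the gamma subunit (Chrng) of the fetal receptor is replaced by the epsilon subunit (Chrne) in the adult, and denervated muscle is known to express the fetal subunit again.

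The array reads each gene through a 60-base probe. The probes shown belong to members with a large part in the results below, with positions on the rat build rn4 as the array files give them, all on the minus strand. Htr3b, whose 2 probes lie in different parts of the gene, is given with both. A stretch longer than the probe marks a probe that runs across an intron. The probe letters are in lower case throughout because no part of them was singled out.
Htr3b, chr8:52210297-52210615: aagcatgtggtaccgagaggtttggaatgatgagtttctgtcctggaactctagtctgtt
Htr3b, second probe, chr8:52199637-52199696: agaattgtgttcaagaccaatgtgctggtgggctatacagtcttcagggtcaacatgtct
Chrna1, chr3:56089089-56090283: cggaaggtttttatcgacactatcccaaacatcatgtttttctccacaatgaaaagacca
Gabra5, chr1:108844189-108844248: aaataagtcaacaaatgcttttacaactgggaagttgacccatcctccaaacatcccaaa
Grik1, chr11:27734832-27734891: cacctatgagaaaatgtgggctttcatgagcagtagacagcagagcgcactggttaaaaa

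The values below are normalized log2 signals, that is the log2 of a probe's processed intensity minus the 75th percentile of its own array. On this scale 0 is the brightness of the upper quartile probe and -6 is close to the limit of detection on most arrays. Testing in a tissue required 1 day or more on which all 3 arrays had the probe well above background. A gene was called changed when limma gave an adjusted p under 0.05 together with a fold change over 2, which is 1 on the log2 scale. Signals of different probes are not compared with each other, because probes differ in how brightly they hybridize. Where a gene has several probes, the brightest over the 30 arrays stands for it. Where a probe was well above background on no array of the dimmer group, the change is given only as a lower bound, the brighter group's mean against the dimmest signal that counted as detected on the dim arrays, and no fold is given where that bound is under 1.

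The arrays were alike within groups, with correlations over all probes of 0.9844 to 0.9967, but 2 of them stood apart. Replicates 2 and 3 of DRG at 0 d had 26941 and 28560 probes well above background, against 30227 to 35573 on the other 28 arrays, and they were hybridized on a slide of their own. Their dimmest detected signal was -5.06 and -5.42, against -7.42 to -6.22 on the other 28 arrays. A dim probe can thus be undetected on these 2 arrays at a signal that counts as detected elsewhere. All 6 of the 0 d arrays had fewer detected probes (26941 to 32602) than any later array (33079 to 35573). Each of the 8 slides carried 1 or 2 days, so a change over days cannot be told apart from a change of slide, whereas SN and DRG shared several slides. The arrays had 3 scan dates, and the 6 arrays of 0 d, with no others, shared 1 of them. A change against 0 d therefore cannot be told apart from a change of scan date either. At 7 d DRG replicates 2 and 3 had another scan date than DRG replicate 1 and the SN arrays. Calls against 0 d that were lost without the DRG 0 d arrays of that slide are named beside the result.

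Receptor genes were detected more widely in DRG than in SN. Of the 71 probes, 41 were well above background on all 15 DRG arrays and 24 on all 15 SN arrays, and at 0 d the numbers were 41 and 28. After the filter, 60 probes of 51 genes were tested in DRG and 47 probes of 41 genes in SN, with 46 probes tested in both and 10 in neither. All 5 muscle-type nicotinic genes and both 5-HT3 genes were tested in each tissue. The GABA-A genes were represented by 14 of 17 probes in DRG and 9 of 17 in SN, and the neuronal nicotinic genes by 11 and 7 of 13. Among glutamate receptors, 7 of 8 AMPA probes were tested in each tissue, all 5 kainate probes in DRG and 4 in SN, and 7 of 8 NMDA probes in DRG and 5 in SN. Only 2 of 6 glycine receptor probes passed in either tissue. Chrna9, Gabra6, Gabrp, Glra2, Glra3 and Glra4 were above background on no array.

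**Figure D1:**
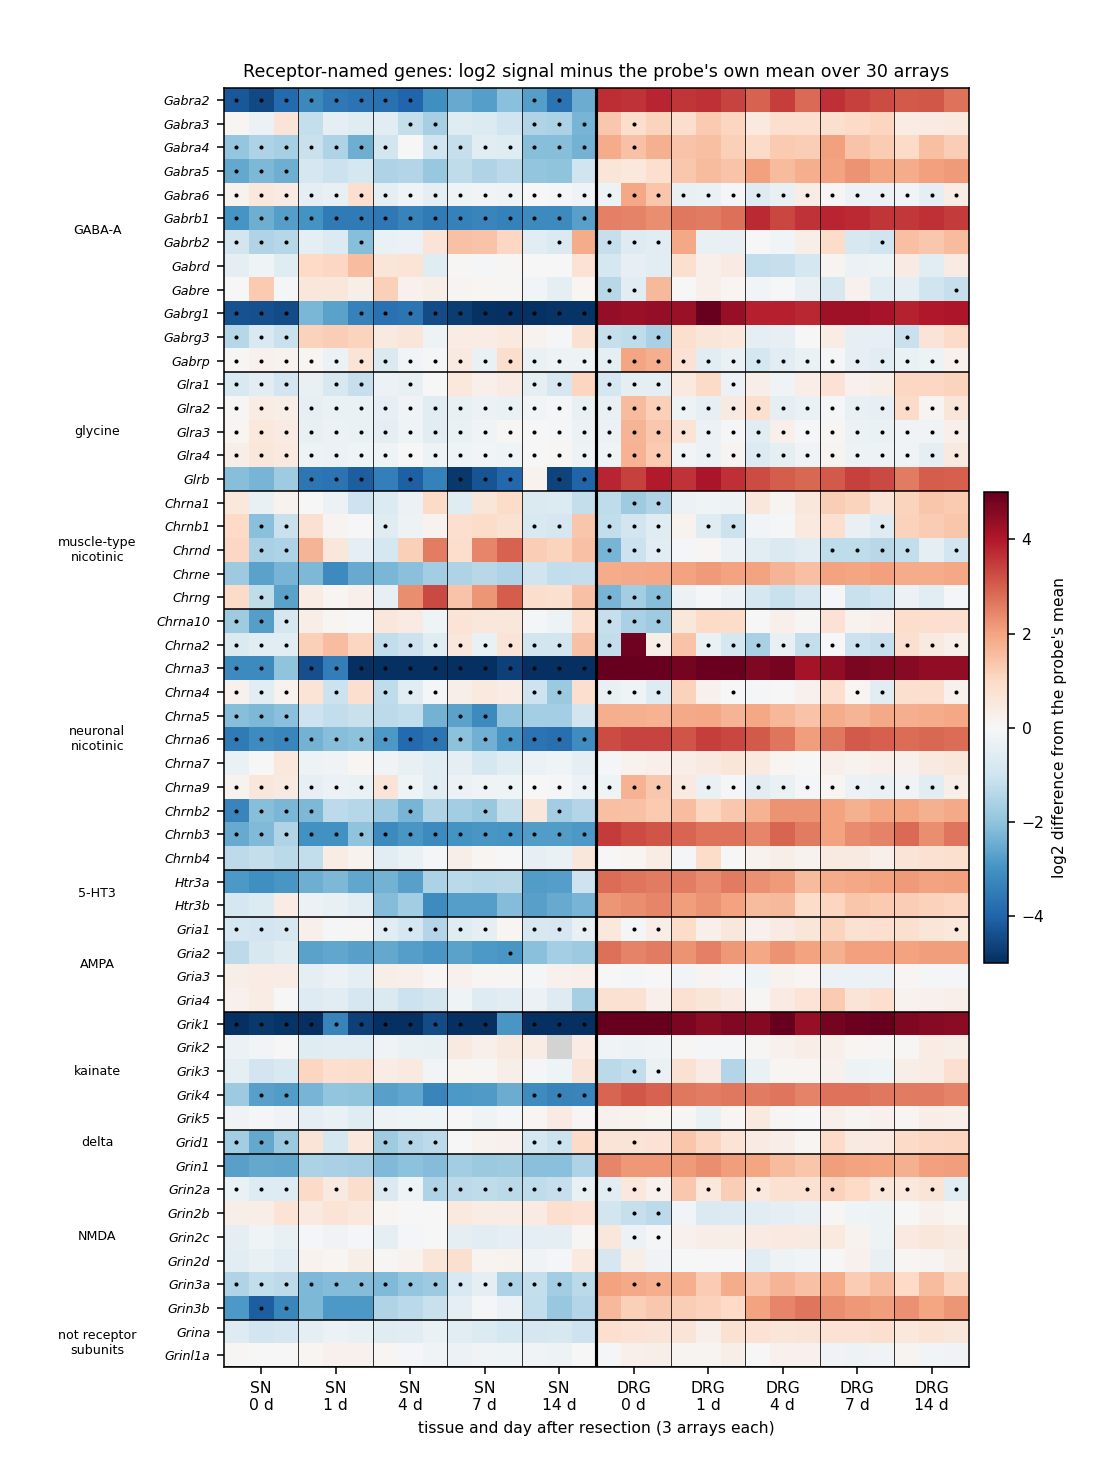
Heat map of 54 of the 59 receptor-named genes (rows, grouped by receptor type, 1 probe each) over the 30 arrays (columns, by tissue and day). Color is the normalized log2 signal minus the mean of that probe over the arrays, a dot marks an array on which the probe was not well above background, and grey is a missing value. Several GABA-A and neuronal nicotinic genes are clearly brighter over the DRG columns than over the SN columns, and dots are more frequent over the SN columns.

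At 0 d most tested receptor genes were lower in SN than in DRG. A probe entered this comparison when all 3 of the 0 d arrays of either tissue had it well above background. Of 47 member probes in this comparison, 30 were lower in SN (63.8%), where 16.6% of all 30743 probes were lower, and 2 were higher, where 21.9% of all probes were. Only 11 of these 32 calls had every 0 d array of both tissues well above background. The others passed the filter through the brighter tissue alone, so their adjusted p is not independent of the filter. The median log2 difference of the members was -3.16, against 0.23 over all probes. In bulk tissue a lower number of cells of a type and less RNA per cell cannot be told apart.

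The largest gap belonged to Grik1, which encodes a kainate receptor subunit of small sensory neurons. Its DRG signals at 0 d were 2.02, 2.0 and 1.76, and its SN signals were -8.72, -8.54 and -8.59, none of them above background. The DRG level was at least 322-fold higher (adjusted p = 4.12e-16). Among GABA-A subunits, the gamma subunit Gabrg1 was at least 110-fold higher in DRG (adjusted p = 9.93e-21) with DRG signals of 0.41, 0.31 and 0.40, and the alpha subunit Gabra2 at least 79.6-fold (adjusted p = 4.83e-18) with -0.11, -0.18 and 0.03. These 3 genes were near or above the upper quartile of their DRG arrays and undetected in the nerve at 0 d. The beta subunit Gabrb1 was at least 8.26-fold higher in DRG.

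Most neuronal nicotinic genes and both 5-HT3 genes were also lower in SN. Chrna3, the alpha subunit of the ganglionic receptor, had DRG signals of 1.79, 1.64 and 1.61 and SN signals of -6.54, -6.52 and -5.37, of which 1 was above background (log2 difference -7.83, adjusted p = 2.15e-15). Chrna6 was at least 20.5-fold and the accessory subunits Chrna5 and Chrnb3 at least 13.5-fold and 10.8-fold higher in DRG. Htr3a, the 5-HT3 subunit able to form a channel alone, was lower in SN (log2 difference -5.65, adjusted p = 6.87e-14), and Htr3b, which joins it, differed by -2.70 (adjusted p = 8.83e-09), with all their arrays above background. Glrb, the glycine receptor beta subunit that binds the anchoring protein gephyrin, differed by -5.80 (adjusted p = 4.29e-08). Grin1, the subunit every NMDA receptor needs, differed by -4.88 (adjusted p = 1.9e-19), and Gria2, the AMPA subunit that limits calcium entry, by -3.52 (adjusted p = 2.96e-16).

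Only Chrna1, the alpha subunit of muscle-type receptors, and the NMDA subunit Grin2b were called higher in SN. Chrna1 had SN signals of -3.42, -4.31 and -3.77 against -5.22, -5.71 and -5.46 in DRG (log2 difference 1.63, adjusted p = 0.000313). On the same arrays 10 skeletal muscle genes had a summed log2 level of 10.87, 6.94 and 7.41 in SN and 5.40, 7.97 and 6.43 in DRG. The part of muscle RNA in the Chrna1 difference was not tested. Grin2b differed by 1.55 (adjusted p = 8.21e-10), with signals of -4.91, -4.87 and -4.50 in SN and -6.09, -6.36 and -6.48 in DRG. In DRG only 1 of the 3 arrays was above background for Chrna1 and for Grin2b. The arrays that missed them were the separate ones, replicates 2 and 3, with their higher limit of detection. Gria3, Gria4, Grik2, Grik3, Grik5, Grin2c, Grin2d, Gabrd, Gabra3, Gabre and Grinl1a were tested and not called different between the tissues. Chrna7, whose product forms calcium-permeable channels alone, depended on the probe. Its main probe had signals of 0.22, 0.56 and 1.08 in SN and 0.50, 0.76 and 0.81 in DRG (log2 difference -0.07, adjusted p = 0.727), whereas a second probe was at least 6.8-fold lower in SN (adjusted p = 5.17e-09). Of the 27 genes called by their main probe, 21 were called under all 4 other ways of computing the signal. Chrna1, Grin2b, Gabra5, Chrnb2 and Chrnb4 were among those that were not.

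**Figure D2:**
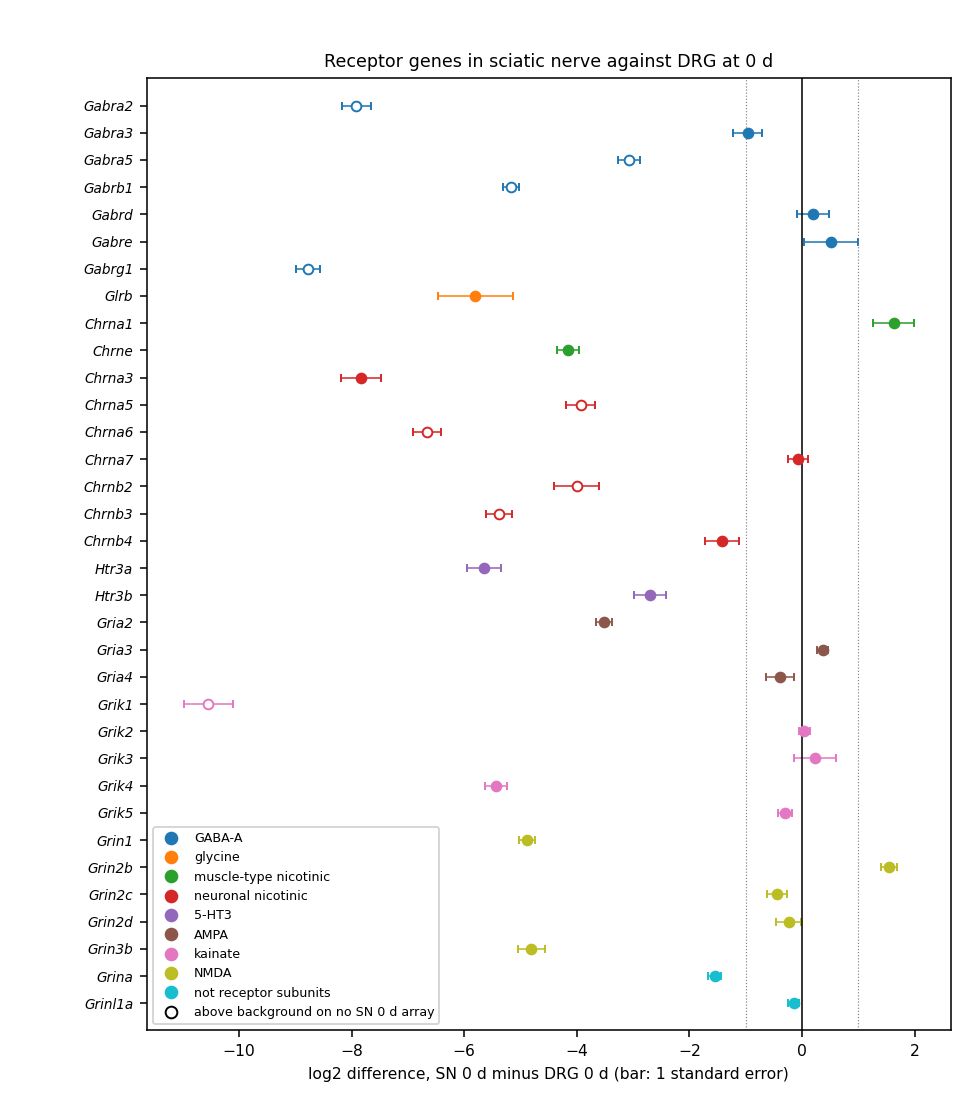
Log2 difference in normalized signal between SN and DRG at 0 d (horizontal axis) for most of the tested receptor genes (vertical axis), with bars of 1 standard error, n = 3 arrays per tissue. Color gives the receptor type, open points were above background on no SN array, so their position depends on noise in SN, and dotted lines mark a 2-fold difference. Most points lie left of the lower line, with Grik1 at -10.54, while Chrna1 at 1.63 and Grin2b at 1.55 lie to the right.

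After resection, 32 of the 59 genes were called against 0 d on at least 1 day, 18 in DRG and 24 in SN, with 10 in both. No share of all genes called on at least 1 day is given, so these totals are not a result about the members. The counts for each day are set beside the share of all probes. In DRG the calls were few until 14 d. At 1 d 6 of 60 member probes rose (where 7.43% of all probes rose) and 1 fell (1.67%, against 0.169%). At 4 d 5 rose (8.33%, against 6.04%) and 2 fell (3.33%, against 0.506%), and at 7 d 6 rose (against 6.58%) and 2 fell (3.33%, against 0.326%). At 14 d 12 rose (against 13.0%) and 3 fell (5.0%, against 0.46%). The median log2 change of the members was between -0.19 and 0.00 on the 4 days, and that of all probes between 0.08 and 0.14. Between 1 and 14 d 4 member probes changed (6.67%, against 5.26%). Of the 12 that rose at 14 d, 7 had been above background on no 0 d array. Macrophage genes moved over the same days in DRG, with a summed log2 level of 4.27 to 4.96 at 0 d and 5.62 to 6.19 from 4 d on, and sensory neuron genes had 9.61 to 9.63 at 0 d and 9.31 to 9.44 at 7 and 14 d. Their part in the DRG changes was not tested.

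Among GABA-A subunit genes, Gabra5 and Gabrb1 rose in DRG from signals well above background. Gabra5, an alpha subunit of extrasynaptic receptors, had signals of -3.63, -3.72 and -3.40 at 0 d and of -2.87, -2.65 and -2.79 at 1 d. They were -2.17, -2.64 and -2.40 at 4 d, then -2.21, -1.97 and -2.27 at 7 d and -2.38, -2.19 and -2.09 at 14 d. All 12 arrays after resection lay above the 0 d arrays, with a log2 change of 1.18, 1.43 and 1.36 at 4, 7 and 14 d (SE 0.14, n = 3, adjusted p = 0.000107, 2.03e-05 and 2.53e-05), whereas the 0.81 at 1 d was short of a 2-fold change.

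Gabrb1, a beta subunit, had signals of -3.26, -3.32 and -3.48 at 0 d and of -3.16, -3.20 and -3.04 at 1 d. Signals of -2.07, -2.47 and -2.17 followed at 4 d, of -1.97, -2.05 and -2.22 at 7 d and of -2.27, -2.14 and -2.30 at 14 d. The groups at 4, 7 and 14 d did not overlap with those at 0 and 1 d, and the log2 change was 1.12, 1.27 and 1.12 (SE 0.11, adjusted p = 3.47e-05, 1.05e-05 and 2.53e-05). The same gene was above background on no SN array at any time.

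Gabra2 and Gabra3 had log2 changes of -0.73 and -0.71 in DRG at 14 d and were not called, and Gabrg1, bright in DRG, had 0.41, 0.31 and 0.40 at 0 d and -0.14, 0.00 and 0.04 at 14 d (log2 change -0.40, adjusted p = 0.0522).

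Gabrd, whose delta subunit belongs to extrasynaptic receptors, was called in DRG at 1 d alone. Its signals were -3.05, -2.59 and -2.75 at 0 d and -1.38, -1.95 and -1.78 at 1 d (log2 change 1.1, adjusted p = 0.00817), and at 4 d they were -3.42, -3.33 and -3.08. The dim subunits Gabrg3 and Gabrb2 were above background on no DRG array at 0 d. Gabrg3 reached -5.23, -5.43 and -5.52 at 1 d, at least 1.36-fold higher (adjusted p = 0.00617), and was also called at 14 d with 2 arrays above background (adjusted p = 0.014). Gabrb2 rose at least 3.01-fold at 14 d (adjusted p = 0.00899), from -6.79, -6.30 and -6.22 to -4.13, -4.29 and -4.07. Its earlier signals split by slide: the array of 1 d on one slide had -3.70 and the other two, on another slide, -6.04 and -6.03, and at 7 d the values were -4.75 against -6.44 and -6.63. Without the 2 separate 0 d arrays Gabrg3 was called on neither day (adjusted p = 0.0887 and 0.163), and Gabrb2 was not called either (adjusted p = 0.0525).

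Of the 5-HT3 genes, Htr3b fell in DRG. Its signals were 0.41, 0.54 and 0.65 at 0 d, then 0.29, 0.44 and 0.24 at 1 d and -0.20, -0.16 and -0.86 at 4 d. They were -0.72, -0.39 and -0.48 at 7 d and -0.54, -0.64 and -0.70 at 14 d, so that all arrays from 4 d on lay below those of 0 d. The log2 change was -1.06 at 7 d and -1.16 at 14 d (SE 0.16, adjusted p = 0.000746 and 0.00027). The second Htr3b probe gave -0.96 and -0.93 (adjusted p = 0.000868 and 0.000636), short of 2-fold. Without the 2 separate 0 d arrays the change at 7 d was -0.94 (adjusted p = 0.0308), below the limit as well. Htr3a had 1.67, 1.53 and 1.44 at 0 d and 0.97, 0.88 and 0.90 at 14 d, a log2 change of -0.63 (adjusted p = 0.00674) that was not called.

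Among glutamate receptor genes of the DRG, Grik1 fell and a few dim genes rose. Grik1 had signals of 2.02, 2.0 and 1.76 at 0 d and of 1.0, 0.81 and 0.92 at 1 d. They were 0.88, 1.27 and 0.64 at 4 d, then 1.07, 1.19 and 1.34 at 7 d and 0.96, 0.83 and 0.81 at 14 d. Every array after resection was below every 0 d array. The log2 change was -1.02, -1.0 and -1.06 at 1, 4 and 14 d (SE 0.14, adjusted p = 0.000461, 0.000471 and 0.000185) and -0.73 at 7 d. The calls at 1 and 4 d lay at the 2-fold limit and were lost when any of several single arrays was left out, with log2 changes of -0.86 to -0.98.

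Grin2b rose at 14 d, from -6.09, -6.36 and -6.48 (1 array above background) to -5.18, -4.96 and -5.08 (log2 change 1.24, SE 0.16, adjusted p = 0.000132). Grik3 rose by 1.46 at 14 d, from -6.60, -6.50 and -5.59 to -4.95, -4.89 and -4.46 (adjusted p = 0.0263, and 0.067 without the 2 separate 0 d arrays). Grin3b, an NMDA subunit that binds glycine, rose between 1 and 14 d by 1.04 (adjusted p = 0.00116), from -1.57, -1.63 and -1.80 to -0.49, -0.80 and -0.58. Grin1, with 2.43, 2.17 and 2.17 at 0 d, was not called on any day. No AMPA gene was called in DRG on any day, nor was Grid1, a delta subunit gene. The DRG level of Grina was 3.03, 2.92 and 2.81 at 0 d and 2.72, 2.85 and 2.76 at 14 d, and that of Grinl1a 3.98, 4.26 and 4.32 and then 4.16, 3.87 and 3.86, neither of them called.

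The muscle-type subunit Chrna1 had the largest fitted log2 change of the members called in DRG. Its signals were -5.22, -5.71 and -5.46 at 0 d, with 1 array above background, and -4.25, -4.18 and -4.22 at 1 d. They reached -3.40, -3.83 and -3.39 at 4 d, then -2.72, -2.82 and -3.29 at 7 d and -2.82, -2.56 and -2.66 at 14 d. Each day lay above the days before it without overlap, except that 7 and 14 d overlapped. The log2 change was 1.24, 1.92, 2.52 and 2.78 (SE 0.17, adjusted p = 0.000398, 1.13e-05, 8.94e-07 and 4.26e-07), and 1.54 between 1 and 14 d (adjusted p = 0.000113). Leaving out the 2 separate 0 d arrays gave 1.0 at 1 d, below the limit, and left the later calls in place.

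Chrng, Chrnd and Chrnb1 were dim in DRG. Chrng had -7.91, -7.34 and -7.72 at 0 d, none above background, and -5.89, -5.70 and -5.91 at 1 d, -6.49, -6.70 and -6.43 at 4 d, then -5.68, -6.73 and -6.59 at 7 d and -5.88, -6.11 and -5.69 at 14 d. It was called on all 4 days (adjusted p = 0.000281, 0.0049, 0.00189 and 0.000188), but the dim 0 d values allow no lower bound over 1. Chrnd was called at 1 d alone (adjusted p = 0.0242), and Chrnb1 rose at least 1.70-fold at 14 d (adjusted p = 0.000911), from -7.58, -7.25 and -6.94 to -5.20, -5.06 and -4.96. Chrne, bright in DRG at 0.82, 0.87 and 0.89 at 0 d and 0.81, 0.81 and 0.92 at 14 d, was not called. Skeletal muscle RNA was present in these samples: all 10 marker genes of muscle were above background on every DRG array, with a summed log2 level of 5.40, 7.97 and 6.43 at 0 d, then 7.95, 7.89 and 7.76 at 1 d, 7.24, 7.62 and 5.83 at 4 d, then 5.94, 6.04 and 5.40 at 7 d and 6.80, 6.42 and 5.32 at 14 d. One of the 10, Pvalb, varied least in DRG, with 3.95, 4.48 and 3.94 at 0 d where Acta1 had 1.0, 4.42 and 2.82. The sum may thus not follow muscle RNA alone on the arrays where it is low. The muscle level at 7 and 14 d was within its range at 0 d or just under it, on the days when Chrna1 was highest, and its part in the result was not tested.

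Neuronal nicotinic and glycine receptor genes of the DRG gave mostly dim calls. Chrna10, which pairs with the alpha9 subunit in other tissues, was above background on no 0 d array (-6.82, -7.26 and -7.45) and on all later ones. It rose at least 1.91-fold at 1 d, with -5.09, -4.66 and -4.74, and at least 1.16, 1.41 and 1.93-fold at 4, 7 and 14 d (adjusted p = 4.94e-06, 6.93e-05, 1.62e-05 and 2.55e-06). Glra1, a glycine receptor alpha subunit, rose at least 1.28-fold at 14 d, from -7.40, -7.05 and -6.98 to -5.52, -5.50 and -5.42 (adjusted p = 0.000586). It was also called at 7 d (adjusted p = 0.0176), though not without the 2 separate 0 d arrays (adjusted p = 0.0589). Chrnb3 fell at 7 d by 1.01 on the log2 scale (adjusted p = 0.00116), and Chrna4 was called higher at 14 d (adjusted p = 0.0319, and 0.18 without those 2 arrays). Chrna3 had 1.79, 1.64 and 1.61 at 0 d and 1.22, 1.07 and 1.08 at 14 d, a log2 change of -0.56 (adjusted p = 0.00798) short of 2-fold, and Chrna7 had 0.77, 1.03 and 1.13 at 14 d and was not called.

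**Figure D3:**
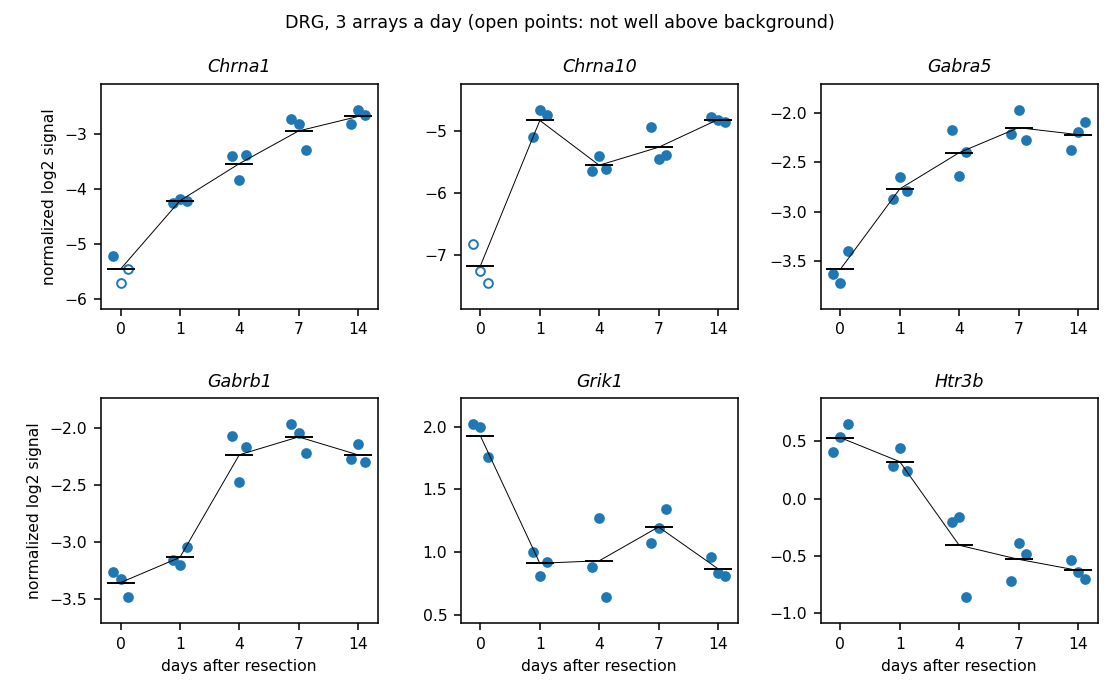
Normalized log2 signal (vertical axis) of 6 receptor genes in DRG by day after resection (horizontal axis, days evenly spaced). Points are arrays, 3 per day, bars are means, and open points were not well above background. Chrna1 climbs from between -5.71 and -5.22 at 0 d to between -2.82 and -2.56 at 14 d, Gabra5 and Gabrb1 rise by 1.36 and 1.12 at 14 d, and Chrna10 is above background on every array after 0 d, and Htr3b and Grik1 fall by 1.16 and 1.06.

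In SN a larger share of members was called than in DRG, over a larger background. At 1 d 12 of 47 member probes rose (25.5%, where 18.6% of all probes rose) and 2 fell (4.26%, against 3.43%). At 4 d 6 rose (12.8%, against 15.9%) and 7 fell (14.9%, against 6.78%). At 7 d 14 rose (29.8%, against 18.1%) and 5 fell (10.6%, against 6.81%), and at 14 d 9 rose (19.1%, against 14.3%) and 6 fell (12.8%, against 5.46%). Between 1 and 14 d 10 changed (21.3%, against 13.5%). Of the members that rose, 7 of 12 at 1 d and 8 of 14 at 7 d had been above background on no 0 d array. Macrophage genes moved in the same samples, with a summed log2 level of 5.66 to 5.84 at 0 d and 7.84 to 8.12 at 4 d, and so did T cell genes (0.33 to 0.60 at 0 d, then 2.84 to 3.15 at 7 d). Their part in the SN changes was not tested.

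Htr3b fell in SN as well. Its signals were -2.61, -2.48 and -1.42 at 0 d and -2.07, -2.15 and -2.37 at 1 d, and then -3.94, -3.53 and -4.95 at 4 d, then -4.56, -4.54 and -3.96 at 7 d and -4.49, -4.29 and -4.13 at 14 d. The 9 arrays from 4 d on were all lower than the 6 before, and all stayed above background. Against 0 d the log2 change was -1.97, -2.18 and -2.13 at 4, 7 and 14 d (SE 0.36, adjusted p = 0.000468, 0.000218 and 0.000328), and the second probe, elsewhere in the gene, gave -1.44, -2.22 and -2.41 (adjusted p = 0.00187, 7.71e-05 and 5.54e-05). Htr3a, its partner, was called in the other direction at 7 d, with -4.01, -4.22 and -4.06 at 0 d and -2.50, -2.56 and -2.54 at 7 d (log2 change 1.56, adjusted p = 0.00456). At 14 d Htr3a split by slide, with -3.95 and -3.88 on one and -2.17 on the other.

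The AMPA genes Gria2 and Gria4 fell in SN. Gria2 had -5.35, -4.85 and -4.64 at 0 d, then -6.73, -6.64 and -6.75 at 1 d, -6.59, -6.80 and -6.93 at 4 d, then -6.71, -6.92 and -6.94 at 7 d (2 arrays above background) and -6.13, -5.74 and -5.87 at 14 d. All arrays after resection lay under the 0 d arrays, by a log2 change of -1.76, -1.83 and -1.91 at 1, 4 and 7 d (SE 0.16, adjusted p = 4.07e-06, 1.86e-06 and 1.34e-06), and the -0.96 at 14 d was not called. The second Gria2 probe was at least 4.48-fold lower at 1 d and 3.80-fold at 7 d, when it was above background on no array. Gria4 fell by 1.1 at 4 d, with -2.66, -2.51 and -2.84 at 0 d and -3.59, -3.94 and -3.78 at 4 d (adjusted p = 0.00371), and by 1.07 at 14 d (adjusted p = 0.00512). Its second probe also fell on both days, by 1.17 and 1.38. Gria3 had log2 changes of -0.76 at 1 d and -0.14 to -0.23 later and was not called.

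Kainate, delta and NMDA genes that were called in SN against 0 d rose. Grin3b had -5.65, -6.91 and -6.04 at 0 d, with 1 array above background, and -5.01, -5.66 and -5.65 at 1 d. It reached -4.30, -4.13 and -3.91 at 4 d, then -3.27, -2.88 and -3.07 at 7 d and -4.00, -4.68 and -4.25 at 14 d. All arrays from 4 d on lay above the 0 d arrays. The log2 change was 2.09, 3.13 and 1.89 (SE 0.29, adjusted p = 6.36e-05, 2.56e-06 and 0.000184). Grin1, detected on all arrays, rose at 1 d from -2.70, -2.58 and -2.61 to -1.57, -1.62 and -1.66 (log2 change 1.01, adjusted p = 3.74e-05), and Grik3 rose at 1 d from -5.76, -6.21 and -6.04 to -4.18, -4.42 and -4.37 (log2 change 1.68, adjusted p = 3.9e-05). The delta subunit gene Grid1, undetected at 0 d (-7.56, -8.35 and -7.67), rose at least 1.62-fold by 1 d and by 7 d at least 1.67-fold (adjusted p = 0.00264 and 0.00231), with -5.79, -5.62 and -5.59 at 7 d. The call at 14 d (adjusted p = 0.0117) rested on 1 array above background (-4.84), on another slide than the other two (-6.70 and -6.90). Between 1 and 14 d Grik4 fell at least 2.2-fold (adjusted p = 0.00243).

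**Figure D4:**
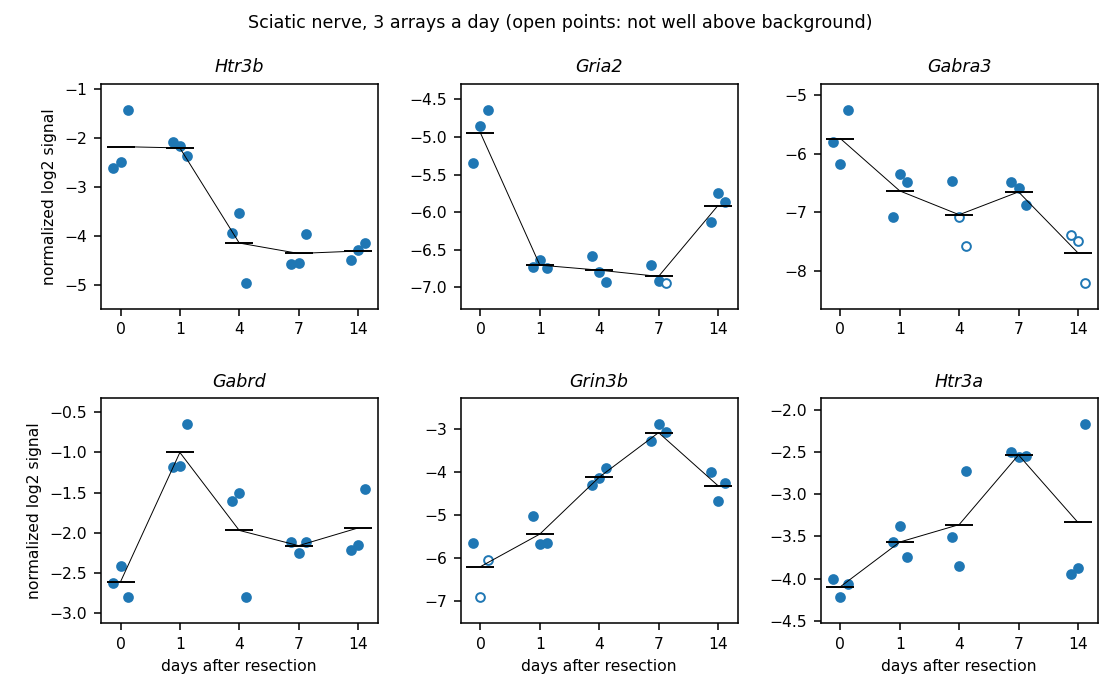
Normalized log2 signal (vertical axis) of 6 receptor genes in SN by day after resection (horizontal axis, days evenly spaced). Points are arrays, 3 per day, bars are means, and open points were not well above background. Htr3b is lower on every array from 4 d on, Gria2 is lower on every array after 0 d, Gabra3 falls toward background by 14 d, Grin3b peaks at 7 d, Gabrd is highest at 1 d and Htr3a at 7 d has 3 close values above those of 0 d.

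Of the 9 GABA-A probes tested in SN, 6 rose on at least 1 day, most of them from signals near the limit of detection. Gabrd was the exception, since all its arrays were above background. It had -2.62, -2.41 and -2.80 at 0 d, then -1.18, -1.17 and -0.65 at 1 d, -1.60, -1.51 and -2.80 at 4 d, then -2.11, -2.25 and -2.12 at 7 d and -2.21, -2.15 and -1.46 at 14 d. The 1 d arrays lay above all the others of the time course. The log2 change at 1 d was 1.61 (SE 0.31, adjusted p = 0.000685), against 0.64, 0.45 and 0.67 on the later days, which were not called.

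Gabrg3, undetected in SN at 0 d (-7.45, -6.80 and -7.17), was called on all 4 days. It reached -4.89, -4.83 and -4.93 at 1 d, at least 2.87-fold higher (adjusted p = 1.15e-05), and was at least 1.54, 1.69 and 1.54-fold higher at 4, 7 and 14 d. Gabrb2, also undetected at 0 d (-6.56, -7.16 and -7.09), rose at least 4.11-fold at 7 d (adjusted p = 0.00285), to -4.17, -4.23 and -4.60. At 14 d it too split by slide, with -6.18 and -6.39 on one and -3.78 on the other. Gabra2 rose at least 1.12-fold at 7 d, from -8.02, -8.32 and -7.67 to -6.30, -6.54 and -5.87 (adjusted p = 0.000497), and was called at 14 d with 1 array above background (adjusted p = 0.00624). Gabra5 was at least 2.37-fold higher at 1 d, and at 7 d 1.74-fold (adjusted p = 0.000141 and 0.00167).

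Only 1 of the 9 GABA-A probes tested fell in SN. Gabra3 had -5.80, -6.17 and -5.25 at 0 d, then -7.08, -6.34 and -6.48 at 1 d, -6.47, -7.08 and -7.57 at 4 d, then -6.48, -6.59 and -6.88 at 7 d and -7.38, -7.49 and -8.20 at 14 d, when no array was above background. The fall at 4 d was 1.30 on the log2 scale (adjusted p = 0.0039), and at 14 d the gene was at least 2.25-fold lower (adjusted p = 0.000288). With the normexp background correction the difference at 14 d was 0.32, the opposite sign. Glrb was at least 2.47-fold lower at 7 d, from -5.74, -5.96 and -5.40 to -8.45, -7.94 and -7.56 (adjusted p = 0.0438), but at 14 d its values were -3.45, -8.26 and -7.64, and the call was lost when any of the 6 arrays was left out (adjusted p = 0.0623 to 0.116) or with the slide as a random block (adjusted p = 0.162). Glra1 was called higher at 7 d, at least 1.20-fold (adjusted p = 0.0174, and 0.0588 with the slide block).

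Nicotinic genes of the muscle type were variable in SN. Chrng had -4.63, -6.85 and -8.27 at 0 d, with 1 array above background, -5.22, -5.52 and -5.33 at 1 d, and -6.00, -3.26 and -2.29 at 4 d. It had -4.18, -3.39 and -2.58 at 7 d and -4.72, -4.81 and -4.15 at 14 d. The groups at 0 and 4 d overlapped, and those at 0 and 7 d did not. The log2 change was 2.73 at 4 d and 3.20 at 7 d (SE 0.93, adjusted p = 0.0233 and 0.0102), and neither call held with the slide as a random block (adjusted p = 0.0693 and 0.0601). Chrnd followed with 2.81 at 7 d (SE 0.92, adjusted p = 0.0181, and 0.0878 with the slide block), from -4.91, -7.56 and -7.46 to -5.03, -3.50 and -2.97, with overlap. Chrne, detected on all arrays, rose by 1.13 at 14 d (adjusted p = 0.00188), from -2.86, -3.69 and -3.35 to -2.01, -2.25 and -2.23. Chrna1, with 0 d signals of -3.42, -4.31 and -3.77 and 14 d signals of -4.69, -4.64 and -5.13, was called on no day in SN.

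The muscle markers varied between SN arrays too. Their summed log2 level was 10.87, 6.94 and 7.41 at 0 d, then 7.95, 6.96 and 8.29 at 1 d, 4.84, 3.01 and 4.07 at 4 d, then 2.82, 6.47 and 5.87 at 7 d and 7.73, 6.53 and 8.29 at 14 d. The 0 d array with the highest muscle level was also the one with the highest signal of all 5 muscle-type genes, Chrna1 and Chrne included. At 4 d the muscle level was below that of every 0 d array, whereas Chrng was higher on 2 of the 3 arrays of 4 d than on any of 0 d. At 7 d the array with the lowest muscle level had the lowest Chrng and Chrnd. The part of muscle RNA in the values of these genes was not tested.

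**Figure D5:**
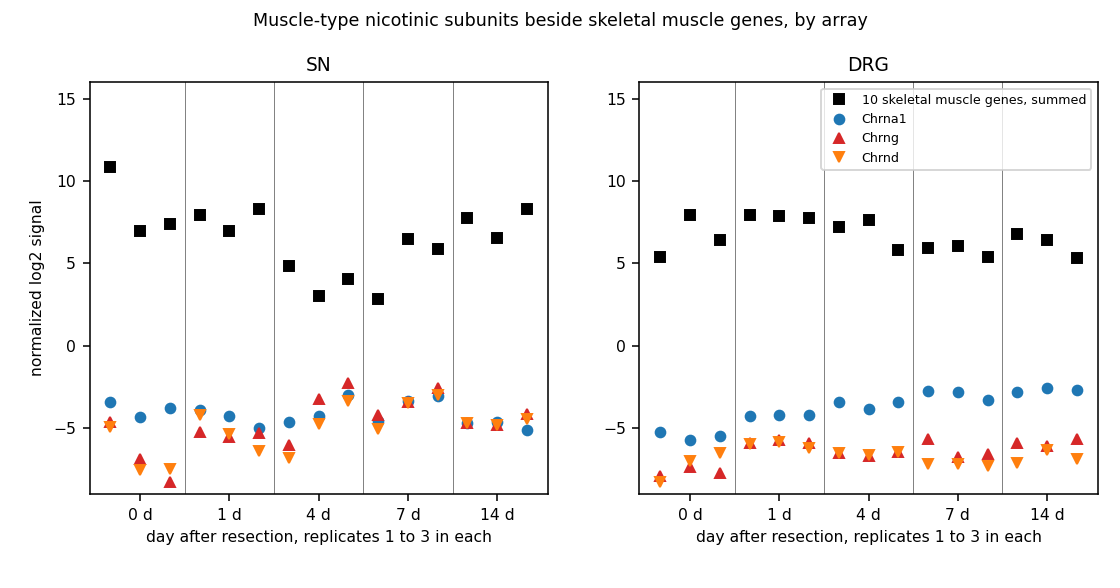
Normalized log2 signal (vertical axis) on each of the 15 SN arrays (left) and 15 DRG arrays (right), in order of day and replicate, for 10 skeletal muscle genes summed (squares) and for Chrna1, Chrng and Chrnd. In DRG Chrna1 ends between -2.82 and -2.56 at 14 d while the muscle sum ends between 5.32 and 6.80, and in SN the muscle sum is lowest at 4 d and on 1 array of 7 d.

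Of the muscle-type genes, Chrna1, Chrnd and Chrng have long been known to carry E-boxes, the CANNTG motif that myogenic factors bind, in front of their start. The 250 bases upstream of their starts are shown from RefSeq on build GRCr8, with every CANNTG in capitals. The motif reads as CANNTG on both strands, so that 1 search covers both.
Chrna1, chr3:78877354-78877603, minus strand: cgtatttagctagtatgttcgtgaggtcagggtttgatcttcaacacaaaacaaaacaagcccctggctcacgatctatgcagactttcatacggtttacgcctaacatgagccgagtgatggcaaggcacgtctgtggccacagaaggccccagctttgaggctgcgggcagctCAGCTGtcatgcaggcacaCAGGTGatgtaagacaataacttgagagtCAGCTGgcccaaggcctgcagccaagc
Chrnd, chr9:95310066-95310315, plus strand: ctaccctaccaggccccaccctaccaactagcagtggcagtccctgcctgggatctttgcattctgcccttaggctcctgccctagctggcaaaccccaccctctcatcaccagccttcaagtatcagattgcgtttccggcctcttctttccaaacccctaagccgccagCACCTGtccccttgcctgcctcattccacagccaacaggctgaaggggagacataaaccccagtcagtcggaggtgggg
Chrng, chr9:95325734-95325983, plus strand: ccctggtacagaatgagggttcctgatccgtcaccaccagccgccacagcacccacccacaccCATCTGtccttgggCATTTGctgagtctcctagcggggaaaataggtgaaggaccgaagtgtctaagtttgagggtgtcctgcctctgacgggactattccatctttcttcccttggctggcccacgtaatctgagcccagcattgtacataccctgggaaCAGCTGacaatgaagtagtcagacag
Chrna1 and Chrng held 3 matches each and Chrnd 1. Of the other muscle-type genes, whose sequences are not shown, Chrnb1 held 3 and Chrne 1. Among all 33469 promoters of the same length 65.5% held at least 1 match and 11.5% at least 3. At least 1 was found in 58.5% of the promoters of the 40 member genes that could be matched by symbol. A match is a run of letters and was not tested as a binding site.

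Of the 7 neuronal nicotinic probes tested in SN, 5, 2, 3 and 3 rose on the 4 days and none fell, where 18.6, 15.9, 18.1 and 14.3% of all probes rose. A second Chrna7 probe is counted among them. Chrna10 was above background on no 0 d array (-7.42, -8.42 and -6.50) and on all later ones, and it was at least 1.85, 2.01, 2.54 and 1.88-fold higher at 1, 4, 7 and 14 d (adjusted p = 0.00128, 0.000846, 0.000272 and 0.00142), with -4.98, -5.08 and -5.10 at 7 d. Chrnb4, which pairs with Chrna3 in ganglia and was detected on all SN arrays, rose by 1.05 at 1 d, then 1.41 at 7 d and 1.21 at 14 d (adjusted p = 0.0242, 0.00498 and 0.0132). Its 1 d arrays overlapped with 0 d, at -4.93, -3.31 and -3.49 against -4.99, -4.87 and -5.02, and that call was lost with the slide block (adjusted p = 0.105). Chrna5 was called at 1 d, at least 1.80-fold higher (adjusted p = 0.0184, and 0.071 with the slide block). Chrna2 was called at 1 d (adjusted p = 0.00678) from 0 d signals of -8.56, -8.37 and -8.41 to -6.64, -6.28 and -6.75, with no bound over 1. In SN it passed the filter through 1 d alone, as Gabra2 and Glra1 did through 7 d and Glrb through 0 d. The call of Chrna2 at 1 d and those of the others at 7 d thus rest on the arrays that admitted them, and their adjusted p is not independent of the filter. More widely, any risen gene without all 3 of its 0 d arrays above background passed only through later days. Its adjusted p is not free of the filter either. In SN these genes include Grid1, Gabrb2, Gabrg3, Gabra5, Chrna5, Grin3b, Chrng, Chrnd and Chrna10. In DRG they include Chrna1, Chrna10, Chrng, Chrnd, Chrnb1, Gabrb2, Gabrg3 and Glra1.

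Chrna7 depended on the probe. The main probe had signals of 0.22, 0.56 and 1.08 at 0 d and 0.11, -0.30 and -0.05 at 7 d, and was not called. A second probe, in the same place of the gene by the file's coordinates but sharing no more than 6 letters in a row with the first, was undetected at 0 d (-7.94, -8.21 and -7.60) and called higher on all 4 days, at least 3.43-fold at 1 d with -4.39, -4.76 and -4.73 (adjusted p = 0.000168). The last Chrna7 probe was above background on no SN array. No direction is therefore given for Chrna7 in the nerve.

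The changes of SN and DRG were compared by an interaction term on the 46 probes tested in both. The changes differed for 8 probes at 1 d (17.4%, where 11.4% of all 33806 probes differed), 12 at 4 d (26.1%, against 18.2%), 16 at 7 d (34.8%, against 15.3%) and 10 at 14 d (21.7%, against 12.5%). Chrna1 differed on all 4 days, with a log2 change of -0.99 in SN and 2.78 in DRG at 14 d (difference -3.77, adjusted p = 6.3e-06). With the slide as a fixed term it was not called at 1 and 4 d (differences -1.52 and -0.82, adjusted p = 0.122 and 0.362), and without the 2 separate DRG arrays not at 1 d (adjusted p = 0.0931). Htr3b fell in both tissues at 7 d, with a difference of -1.12 that was not called with the slide as a fixed term (adjusted p = 0.14) or without those 2 arrays (adjusted p = 0.08). Htr3a rose in SN at 7 d and had a change of -0.75 in DRG (difference 2.31), which was called in both. Grin3b differed on all 4 days, up to 2.33 at 7 d, though not at 1 and 14 d with the slide as a fixed term (adjusted p = 0.145 and 0.0711). Of the 13 genes that differed at 7 d, Htr3a was the only one called under all 4 other ways of computing the signal, and on the other days none was. With the slide as a term 8 of the 13 still differed at 7 d, and 8 also without the 2 separate DRG arrays.

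Over all days and both tissues 85 calls of a gene on a day were made against 0 d, and 8 of them stood under all 4 other ways of computing the signal. They included Chrna1 in DRG at 7 and 14 d, Htr3b in DRG at 7 and 14 d, Htr3b in SN at 7 d and Gabrd in SN at 1 d. Of these, Htr3b in DRG at 7 d was lost when replicate 1 of that day was left out (log2 change -0.97) and without the 2 separate 0 d arrays (-0.94), and the second Htr3b probe called neither day in DRG. Gabra5 and Gabrb1 in DRG and Grin3b and Gria2 in SN, which separated cleanly by array, were among the calls that at least 1 other background correction or normalization did not return.

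Genes that make, move or anchor the same transmitters and receptors were taken as lists beside the members. Their counts stand beside shares of all probes of 14.3 to 18.6% risen and 3.43 to 6.81% fallen in SN over the 4 days, and of 6.04 to 13.0% and 0.169 to 0.506% in DRG. No list was tested against these shares or between the tissues. Of 8 GABA handling genes tested in SN, 1 rose and 4 fell on the first day, 2 and 4 on the fourth, 3 and 4 at 7 d, and 3 and 1 by 14 d. Abat, the enzyme that breaks GABA down, fell by 1.5, 2.22, 2.35 and 2.42 at 1, 4, 7 and 14 d (adjusted p = 2.03e-06, 7.45e-08, 5.53e-08 and 7.97e-08). Slc6a12, a transporter of betaine and GABA, rose in SN by 2.18, 1.85, 1.86 and 1.63 and in DRG by 2.03, 1.11, 1.42 and 2.10. In DRG 1 or 2 of the 8 genes rose on each day and none fell. Of 10 genes for anchoring GABA-A and glycine receptors, none was called in DRG. Of 4 GABA-A rho and theta genes outside the name rule, 2, 1, 1 and 0 rose in SN and 1, 0, 1 and 2 in DRG on the 4 days, and none fell. Gabrr2 rose by 2.15 and 1.56 in SN at 1 and 4 d and by 2.12, 1.18 and 1.44 in DRG at 1, 7 and 14 d. Of 4 GABA-B receptor genes tested, Kctd12 rose in SN at 14 d by 1.05 and none was called in DRG.

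For acetylcholine, Chat, the enzyme that makes it, rose in DRG by 1.57, 1.35, 1.45 and 2.0 on the 4 days, the only gene of 6 called there. Of 5 genes tested in SN, 0, 1, 1 and 1 rose and 1, 2, 1 and 1 fell on the 4 days. Chat rose there by 1.04, 1.34 and 1.16 from 4 d on, while the vesicular transporter Slc18a3 fell by 1.93, 2.85, 2.62 and 2.61. Of 7 genes for nicotinic receptor assembly tested in SN, 1 rose and 1 fell on each day, and of 9 in DRG 0, 1, 1 and 1 rose and 0, 1, 1 and 0 fell. Rapsn, which clusters the muscle receptor, fell in SN by 1.56, 1.83 and 1.81 from 4 d on, and Slurp1, a secreted ligand of nicotinic receptors, rose in DRG by 1.5, 1.52 and 1.98. Tmem35a, a chaperone of nicotinic receptors, fell in SN at 1 d by 1.24, and Ly6h rose in SN on all 4 days and fell in DRG by 1.25 and 1.53 at 4 and 7 d. Of 4 muscarinic receptor genes, 2, 2, 1 and 1 rose and 1, 1, 1 and 0 fell in SN, and 1 rose in DRG, at 14 d. Chrm3 fell in SN by 1.31, 1.52 and 1.40 at 1, 4 and 7 d, and Chrm1 rose in SN on all 4 days and in DRG at 14 d by 2.06. Of the serotonin handling genes, 0, 1, 1 and 1 of 4 rose and 0, 2, 1 and 1 fell in SN, and 0, 1, 1 and 1 of 5 rose in DRG. Maoa, which degrades serotonin, fell in SN by 1.24, 1.32 and 1.77 from 4 d on, while the vesicular transporter Slc18a2 rose by 1.28, 1.92 and 1.66. Tph2, which makes serotonin in neurons, rose in DRG by 1.42, 1.01 and 1.17 from 4 d on.

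Of 10 glutamate handling genes tested in SN, 2, 2, 2 and 1 rose on the 4 days and 0, 0, 2 and 1 fell, and of 12 tested in DRG none was called on any day. Slc1a1, a glutamate transporter, rose in SN by 1.75, 1.70 and 1.54 at 1, 4 and 7 d, and the glutaminase Gls2 fell by 1.14 and 1.18 at 7 and 14 d. Of 22 genes for auxiliary and scaffold proteins tested in SN, 1, 3, 4 and 2 rose and 0, 1, 0 and 1 fell, and of 23 in DRG 1, 1, 2 and 2 rose and 0, 2, 0 and 1 fell. In SN the risen genes included Neto2, which modifies kainate receptors, by 1.93, 2.0 and 1.72 from 4 d on, and Cnih2, which modifies AMPA receptors, by 1.05 and 1.65 at 4 and 7 d. Shank2 fell in SN by 1.07 and 1.55 at 4 and 14 d, and Cacng8 rose in DRG by 1.30, 1.41, 1.39 and 2.01. Of 7 metabotropic receptor genes tested in SN, 2 rose on each day and 0, 1, 1 and 1 fell, and of 6 in DRG 1, 0, 0 and 1 rose and 0, 1, 0 and 0 fell. Grm8 fell in SN by 1.74 and 1.64 at 4 and 7 d, and Grm4 fell in DRG by 1.20 at 4 d. Of the glycine handling genes, 4, 3, 3 and 1 of 5 rose in SN and 1, 1, 2 and 2 of 6 in DRG, and none fell. The transporter Slc6a9 rose in SN by 2.59, 1.63, 1.88 and 1.64 and in DRG by 1.85, 1.33 and 1.51 at 1, 7 and 14 d, and Gldc and Shmt1, enzymes of glycine metabolism, rose in SN at 1, 4 and 7 d. In DRG Slc6a5, the neuronal glycine transporter, rose by 1.53, 1.52 and 1.53 from 4 d on.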

How the data were processed

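Total RNA of 15 SN and 15 DRG samples was labeled with Cy3 and hybridized to one-color Agilent rat arrays, 1 sample per array. The authors scanned the arrays with Agilent Feature Extraction, and the deposited intensity values are its processed signals, already corrected for background. The deposited matrix of the series holds log2 values with nearly the same distribution on every array. The labels name a mirVana kit for RNA extraction and the study's methods name Trizol.

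From each array's 45018 spots, control spots (leaving 43379) and flagged outliers were left out, and spots of a probe were averaged to 41012 probes, of which 672 single values were missing. The log2 intensity minus the 75th percentile of the array was the normalized signal. Detection of a probe (well above background) required it in 50% or more of its spots. No spot was saturated. Linear models were fitted across all probes of a tissue with limma 3.58.1 in R 4.3.3 (statmod 1.5.0), all 15 arrays together, and 30 arrays for interactions, with Benjamini-Hochberg adjustment over all tested probes. The counts per tissue are 35163 probes for SN, 34977 for DRG, 33806 for both and 30743 for the 0 d contrast. Scripts were tested on simulated data. Figures were made with matplotlib 3.10.9.

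The members and lists were chosen with earlier results of these data known. Full values are given for called members, at most 15 per tissue by size of change, and for the 5 uncalled members brightest in DRG at 0 d. Other members (in SN Gabrd, Htr3a, Gabra5, Chrnb4, Glra1, Chrne, Gria4, Chrna5 and Grin1, in DRG Grik1, Chrna4 and Chrnb3, and those called between days or uncalled) were named after their values were seen. Genes of the lists were named when called, at most 4 a list. Some genes, counted in the totals, are not reported here. Accessions were matched to RefSeq symbols for 16336 of 20607, which renamed 2 member probes.

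Alternatives were quantile normalization, normexp background correction (offset 50) with and without quantile normalization, the authors' log2 matrix (these 4 are the other ways of computing the signal), other dim-probe filters, the methods' t-test, 6-array fits, slide and replicate blocks, and leaving out each array. The slide as a fixed term and leaving out 2 DRG arrays were chosen after seeing the data. Same-numbered arrays were checked for pairing and did not vary together. The number of arrays limits the precision.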

Additional observations from a re-analysis of the deposited data

Results flagged for a closer look

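The change after resection differed between SN and DRG, by the interaction term in limma, for the 15 member genes below on 32 gene and day combinations. Each value below is the SN log2 change minus the DRG log2 change against 0 d, and the adjusted p lay between 6.3e-06 and 0.0432. No explanation was weighed. Slide and day cannot be told apart. The summed level of macrophage genes moved over the days in both tissues, and its part in these differences was not tested.

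Chrna1 differed by -1.8, -2.05, -2.34 and -3.77 at 1, 4, 7 and 14 d, with the DRG change positive and the SN change between -0.99 and 0.18. Of the other muscle-type genes, Chrnd differed by 2.79 at 7 d (SN 2.81, DRG 0.02) and Chrne by 1.15 at 14 d. Chrnb4 differed by 1.17 at 7 d.

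Among GABA-A subunits, Gabra2 differed by 1.26, 2.01 and 1.97 at 4, 7 and 14 d. It was above background on no SN array at 0 d, so that these sizes depend on noise in SN. Gabrd differed by 1.12 at 4 d, a day on which it was called in neither tissue, and Gabra3 by -1.24 at 14 d.

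For 5-HT3 genes the signs were opposite. Htr3a differed by 1.43, 2.31 and 1.39 at 4, 7 and 14 d and Htr3b by -1.03 and -1.12 at 4 and 7 d.

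Of the glutamate receptor genes, Gria2 differed by -1.46, -1.28 and -1.27 at 1, 4 and 7 d and Gria4 by -1.01 at 7 d. Grid1 differed by 1.79 and 2.25 at 1 and 7 d, from SN signals that were undetected at 0 d. Grin1 differed by 1.09, 1.1 and 1.07 at 1, 4 and 7 d, Grin2b by -1.03 and -1.0 at 4 and 14 d, and Grin3b by 1.03, 1.1, 2.33 and 1.12 on the 4 days.

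Several of these differences were not called under other settings. With the slide as a fixed term, those of Chrna1 at 1 and 4 d were -1.52 and -0.82, Grid1 at 1 d 1.42, Grin3b at 1 and 14 d 1.17 and 1.41, Gabrd at 4 d 0.03 (adjusted p = 0.962), Grin2b at 4 and 14 d -0.86 and -0.74, Chrnb4 at 7 d 0.94, Chrnd at 7 d 1.77, Gria2 at 7 d -0.96, Htr3b at 7 d -1.05 and Chrne at 14 d 1.04. Without the 2 separate DRG arrays, Chrna1 and Grid1 at 1 d (adjusted p = 0.0931 and 0.0764), Gabra2 and Gabrd at 4 d (0.0536 and 0.212), Htr3b at 4 and 7 d (0.0956 and 0.08), Chrnb4, Chrnd and Gria4 at 7 d (0.19, 0.311 and 0.153), Gabra3 and Htr3a at 14 d (0.119 and 0.0561) and Grin2b at 4 and 14 d (log2 difference -0.82 and -0.79) were not called. With the slide as a random block Gabrd at 4 d (adjusted p = 0.0731), Chrnb4 and Chrnd at 7 d (0.0758 and 0.0658), Gria4 at 7 d (log2 difference -0.98) and Grin2b at 4 and 14 d (-0.97 and -0.94) were not called.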

How the results depend on the processing

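The counts of called member probes at 1, 4, 7 and 14 d (14, 13, 19 and 15 in SN, 7, 7, 8 and 15 in DRG) fell most under other background corrections. With normexp they were 1, 0, 1 and 1 in SN and 0, 2, 3 and 6 in DRG, 2 in SN and 1 in DRG between 1 and 14 d, and 0, 1, 1 and 3 for the interactions. Normexp with quantile normalization gave 1, 3, 4 and 2 in SN, 0, 1, 2 and 3 in DRG, 2 in SN and 1 in DRG between 1 and 14 d, and 0, 1, 5 and 2 for the interactions. Requiring both groups well above background, which tests fewer probes, gave 5, 5, 4 and 7 in SN, 2, 4, 4 and 5 in DRG, 6 in SN between 1 and 14 d, 2, 5, 6 and 3 for the interactions, and 11 of 32 at 0 d. Quantile normalization and the authors' matrix each gave 4 in DRG at 1 d, the methods' t-test after adjustment 8 in SN at 4 d, and leaving out the 2 separate DRG arrays 7 of 12 for the interaction at 4 d. Of the 85 calls, 3 turned sign with normexp, Gabra3 at 14 d (0.32), Chrna5 at 1 d (-0.02) and Glra1 at 7 d (-0.01), all in SN. The cause was not tested.

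Leaving out 1 array gave 4 to 9 calls in DRG at 1 d and 5 to 10 at 7 d. The fewest at 1 d came without DRG 0 d replicate 1 and the most without replicate 3, and the 5 at 7 d came without DRG 7 d replicate 1. The other counts stayed within 1.5 times the count with all arrays, among them 7 to 15 in SN and 3 to 5 in DRG between 1 and 14 d, and 5 to 8 in DRG at 4 d. Of the 85 calls, 24 were lost without some array, 8 without the 2 separate DRG arrays and a random slide block removed 7. In SN, the losses by log2 change included Chrna5 at 1 d without 0 d replicate 2 or 1 d replicate 1 (both 0.99), Grin1 at 1 d without 0 d or 1 d replicate 1 (0.98 and 0.99), Chrnb4 at 1 d without 0 d replicate 1 or 3 or 1 d replicate 2 or 3 (0.75 to 1.04) and at 14 d without 14 d replicate 3 (0.91), Chrng at 4 d without 0 d or 4 d replicate 2 or 3 (1.89 to 2.6), and Chrnd at 7 d without 0 d or 7 d replicate 2 or 3 (2.35 to 2.64). Gabra5 at 7 d was lost without 0 d or 7 d replicate 1 (0.98 and 1.0), Glra1 at 7 d without 0 d replicate 3 or 7 d replicate 1 (1.05 and 1.1), Glrb at 7 d without any array, Chrne at 14 d without 0 d replicate 2 (0.94), Gabra2 at 14 d without 14 d replicate 3 (0.99) and Gria4 at 14 d without 0 d replicate 2 or 14 d replicate 3 (-0.99 and -0.67). In DRG, replicate 1 of 0 d or of the later day decided Chrnb3 at 7 d (-0.92 and -0.88), Glra1 at 7 d (0.87 and 0.85) and Gabrd at 1 d (0.97 and 0.93). Chrnd at 1 d was lost without 0 d replicate 1 or 1 d replicate 1 or 2 (0.74 to 1.22), Chrng at 4 d without 0 d replicate 1 (0.99), Htr3b at 7 d without 7 d replicate 1 (-0.97), Chrna4 at 14 d without 0 d replicate 1 or 3 or 14 d replicate 1 or 2 (0.92 to 1.04), Gabrg3 at 14 d without 14 d replicate 2 or 3 (1.27 and 1.11) and Grik3 at 14 d without 0 d replicate 1 or 2 or 14 d replicate 3 (1.28 to 1.33). Grik1 was lost at 1 d without 0 d replicate 1 or 2 or 1 d replicate 2, and at 4 d without 0 d replicate 1 or 2 or 4 d replicate 1 or 3 (-0.86 to -0.98).

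Same-numbered arrays did not vary together (correlations of their deviations from -0.274 to 0.218). This does not show whether SN and DRG arrays came from the same rats. With the replicate block the counts were 14, 13, 19 and 15 in SN, 7, 7, 8 and 15 in DRG, 10 and 4 between 1 and 14 d, 8, 11, 16 and 10 for the interactions and 32 at 0 d.

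Signals near background limit these results, since 7 of the 12 rises at 1 d in SN and 7 of the 12 at 14 d in DRG started from probes detected on no 0 d array.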

Other observations

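Chrna2, a neuronal nicotinic subunit that was not tested in DRG, had -9.07, -2.96 and -7.53 on the DRG arrays of 0 d, with only the array at -2.96 above background. On the other 12 DRG arrays its signals lay between -9.47 and -6.41. The array at -2.96 was 1 of the 2 that stood apart.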
